A study of Mus musculus with 20 samples.

Results

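The 10 genes described here serve the transport of solutes and filtered protein in the proximal tubule of the kidney. They are Slc5a2, Slc5a12, Slc6a18, Slc6a19, Slc7a7, Slc7a9, Slc3a1, Slc13a3, Lrp2 and Cubn. They were taken by gene symbol from the table of kidney counts, which lists 55486 genes, and each was found once. The set goes by the name of glucose and amino acid reabsorption, but Slc5a12 carries lactate and other monocarboxylates, Slc13a3 carries dicarboxylates, and Lrp2 and Cubn are receptors for filtered protein. Slc7a7 and Slc13a3 act at the basolateral membrane, which faces the blood and not the urine. Kidney RNA came from 10 C57BL/6 mice that were 10 weeks old at the start and are described in the methods as male and female. The Kidney_oxa group of 5 mice received 10 mg/kg oxaliplatin, a platinum drug that damages DNA, in 5% dextrose by intraperitoneal injection over 8 weeks, and the Kidney_ctrl group of 5 mice received 5% dextrose alone. Bone marrow of mice given the same treatments, in groups of 5 named BM_ctrl and BM_oxa, was used for comparison. The mice carry no engineered allele, each library is labelled a biological replicate, and the day of collection is stated for bone marrow only, 6 days after the last dose.

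The proximal tubule takes back nearly all filtered glucose and amino acids. Carriers in its brush border bring them into the cell together with sodium, using the gradient that the sodium pump maintains, and other carriers in the basolateral membrane pass them on to the blood. Filtered proteins are taken up at the same surface by the receptors megalin (Lrp2) and cubilin (Cubn) through endocytosis. Loss of these genes in humans is known for glucosuria (Slc5a2), Hartnup disease (Slc6a19), cystinuria (Slc3a1 and Slc7a9), lysinuric protein intolerance (Slc7a7) and urinary loss of proteins (Lrp2 and Cubn).

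Total counts per kidney library ranged from 24393007 to 28304953 in Kidney_ctrl and from 26314983 to 30925430 in Kidney_oxa. The levels below are CPM, the usual rate of counts per library, with library sizes scaled by TMM, a method that lines up libraries on the bulk of their genes. Groups were compared with the two-sided quasi-likelihood test of edgeR, with Benjamini-Hochberg adjustment over the 19293 kidney genes that had enough counts. A gene is said to pass when the adjusted p is under 0.05, and to be called when it also changed by more than 1.5-fold. All 10 kidney libraries carried Y-linked transcripts, with summed levels of Ddx3y, Uty, Kdm5d and Eif2s3y between 77.5 and 110.5 CPM. Xist, a transcript of female cells, was between 0 and 0.570 CPM in them. By these genes all 10 kidneys looked male, although the methods name both sexes. In bulk tissue, fewer cells of a type and less RNA per cell cannot be told apart.

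The promoters of 7 of the 10 genes are held in the RefSeq set for GRCm38. The 250 bases before the RefSeq start are shown for the called gene (Slc13a3), for a gene that rose (Cubn) and for Slc3a1. Slc3a1 was the only member with a window holding the site of a factor that acts in this tubule, HNF4. The gene positions printed further below come from another annotation, GENCODE, and their starts differ from the RefSeq starts. Part of the Slc13a3 window lies inside its GENCODE gene. The letters searched, on both strands, were CAAAGTCCA, and the match is in capitals.
Slc13a3, chr2:165473198-165473447, minus strand: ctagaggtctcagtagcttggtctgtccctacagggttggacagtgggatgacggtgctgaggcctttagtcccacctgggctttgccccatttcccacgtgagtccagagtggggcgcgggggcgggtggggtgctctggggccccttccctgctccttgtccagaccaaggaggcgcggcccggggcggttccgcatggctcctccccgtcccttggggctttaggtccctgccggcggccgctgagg
Cubn, chr2:13491877-13492126, minus strand: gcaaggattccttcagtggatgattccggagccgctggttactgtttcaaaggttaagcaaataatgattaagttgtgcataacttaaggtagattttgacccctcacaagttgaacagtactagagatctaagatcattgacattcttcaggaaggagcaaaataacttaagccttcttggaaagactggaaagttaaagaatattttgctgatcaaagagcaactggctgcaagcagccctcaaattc
Slc3a1, chr17:85028097-85028346, plus strand: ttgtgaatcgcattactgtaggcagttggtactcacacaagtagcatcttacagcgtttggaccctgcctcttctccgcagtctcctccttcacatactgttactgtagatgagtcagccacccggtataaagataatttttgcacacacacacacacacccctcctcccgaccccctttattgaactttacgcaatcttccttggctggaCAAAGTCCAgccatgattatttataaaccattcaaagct
Among 32851 promoter windows of this length, the HNF4 site was found in 0.384%. Of 12 windows belonging to the members, 1 held it.

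Of the 10 members, 4 rose after oxaliplatin (Slc5a12, Slc7a7, Cubn and Slc6a18), 1 fell (Slc13a3), and 5 did not pass (Slc5a2, Slc6a19, Slc7a9, Slc3a1 and Lrp2). Among all genes tested in kidney 29.4% passed, 14.4% with a rise and 15.0% with a fall, and the 5 of 10 members stand beside that background. With the 1.5-fold threshold only Slc13a3 was called, 1 of 10, where 11.5% of all genes tested were called. The median log2 fold change of the members was 0.25, and that of all genes tested was 0.02. The groups did not overlap for 2 members, Slc7a7 and Slc13a3, and 20.7% of all genes tested were separated in this way. The summed CPM of the 10 members ranged from 8578 to 10790 with vehicle and from 8605 to 9613 with oxaliplatin.

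**Figure D1:**
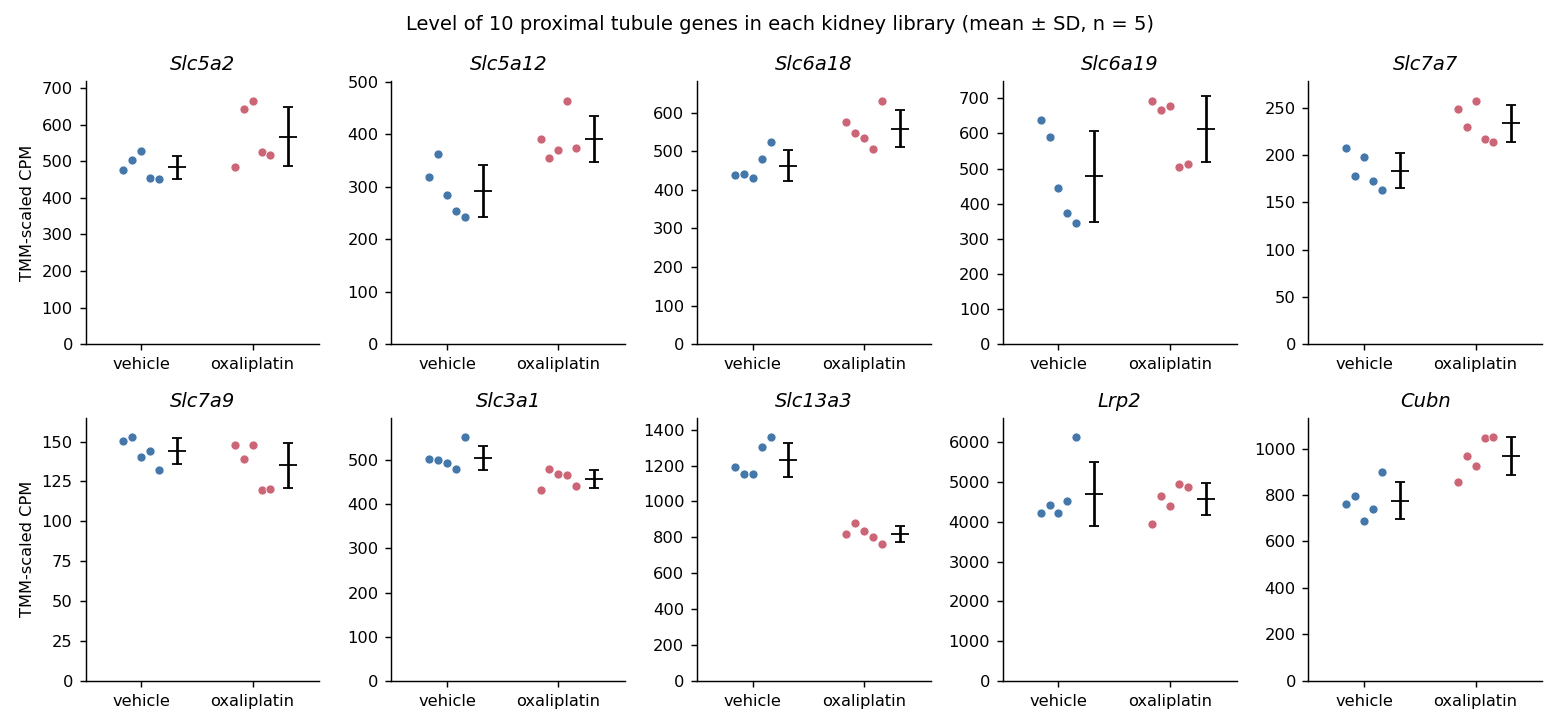
TMM-scaled CPM of each member in the kidney, 1 point per library (5 vehicle, blue; 5 oxaliplatin, red), with the mean and SD at the right of each group; every axis starts at 0. Slc13a3 lies between 763 and 881 CPM with oxaliplatin, below all vehicle libraries, and Slc7a7 between 214 and 258 CPM, above all of them.

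Per length of exon, expressed as RPKM, Lrp2 had the highest level in vehicle-treated kidney, at 281 ± 48.4 RPKM (SD, n = 5). Slc13a3 followed with 236 ± 17.8 RPKM and Slc3a1 with 222 ± 12.1 RPKM, and the ranges of these neighbours overlapped. Slc5a2 came next at 167 ± 11.1 RPKM and was separated from the neighbours on both sides. Slc6a18 at 105 ± 8.999 RPKM, Slc6a19 at 95.5 ± 26.0 RPKM, and Slc5a12 at 72.0 ± 12.1 RPKM overlapped in sequence. Slc7a7, Slc7a9 and Cubn were lowest, with means between 52.0 and 55.4 RPKM, and their ranges overlapped. After oxaliplatin Lrp2 was again highest, at 273 ± 24.2 RPKM. Slc13a3 stood in the fourth place at 157 ± 8.36 RPKM, a range overlapping that of Slc5a2 at 196 ± 28.1 RPKM.

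Slc5a2 (ENSMUSG00000030781, chr7:128265657-128272430), the sodium-glucose carrier of the early proximal tubule that is the target of the gliflozin drugs, was measured at 477, 504, 527, 455 and 453 CPM in the vehicle libraries. After oxaliplatin it was at 485, 644, 666, 525 and 518 CPM. Libraries 2 and 3 of the treated group lay above every vehicle library and the other three lay within the vehicle range. Its log2 fold change of 0.23 ± 0.09 (SE) had an adjusted p of 0.0603 in edgeR, and did not pass. It passed with an adjusted p of 0.0223 without Kidney_oxa replicate 1, of 0.0427 without Kidney_oxa replicate 4 and of 0.0361 without Kidney_oxa replicate 5. Among the other sugar carriers and their partners, 4 of 8 rose and 0 fell by the adjusted p. Slc2a2, the basolateral exit route for glucose, rose by 0.38 ± 0.08 on the log2 scale (adjusted p 0.00256), from 141 ± 17.7 to 184 ± 13.1 CPM. Slc2a1, a second facilitative glucose carrier, was the only called gene of the list, with a log2 fold change of 0.75 ± 0.18 (adjusted p 0.0119). Slc5a1, which takes up the glucose left over in the late tubule, had a log2 fold change of 0.12 ± 0.06 and did not pass (adjusted p 0.167). Pdzk1ip1, the accessory subunit of the Slc5a2 carrier, had one of 0.11 ± 0.10 and did not pass either (adjusted p 0.395). Slc5a2 shares 597 exonic bases with BC017158 on the opposite strand, which was at 29.7 ± 1.48 and 27.5 ± 1.44 CPM in the kidney groups, and whether the counting used the strand is not given in the sources used here.

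Slc6a19 (ENSMUSG00000021565, chr13:73679745-73704865), the main brush border carrier of neutral amino acids, varied among vehicle-treated mice, with an SD of 130 CPM around a mean of 478 CPM. Its vehicle values were 638, 590, 443, 374 and 345 CPM. After oxaliplatin they were 694, 667, 679, 505 and 514 CPM. Libraries 1, 2 and 3 of the treated group were above all vehicle libraries, and libraries 4 and 5 lay within the vehicle range. Its log2 fold change of 0.36 ± 0.18 did not pass (adjusted p 0.170 in edgeR), and it passed only with Kidney_ctrl replicate 1 left out, at 0.48 with an adjusted p of 0.0449, among the 10 fits that left out a library. Slc6a18 (ENSMUSG00000021612, chr13:73661752-73678023), its neighbour on the chromosome and a carrier of glycine and other neutral amino acids in the later tubule, was at 439, 440, 430, 481 and 525 CPM with vehicle. After oxaliplatin it was at 575, 547, 533, 507 and 632 CPM, with all but library 4 above the vehicle range. It rose by 0.27 ± 0.08 on the log2 scale (adjusted p 0.0144).

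Both carriers depend on the membrane protein collectrin (Cltrn) to reach the brush border. Cltrn fell, from 538 ± 28.6 to 402 ± 76.6 CPM, with a log2 fold change of -0.42 ± 0.11 (adjusted p 0.00841), and its groups did not overlap. The ratio of Slc6a19 to Cltrn, taken within each kidney library from log2 CPM, had values of 0.24, 0.11, -0.38, -0.41 and -0.61 with vehicle and of 0.98, 0.61, 0.49, 0.19 and 0.80 with oxaliplatin. The mean was higher by 0.83 after oxaliplatin, and 4 of 5 treated libraries were above all vehicle libraries. An exact two-sided permutation test over the 252 divisions of the libraries gave p = 0.0159, or 0.0397 after adjustment over the 5 ratios tested. The difference lay between 0.73 and 0.94 when each library was left out, but its adjusted p rose above 0.05 in all of these tests other than those without Kidney_ctrl replicate 1 and without Kidney_oxa replicate 4, up to 0.0794. The ratio of Slc6a19 to Slc6a18 differed by 0.11 between the groups and did not pass (exact permutation, adjusted p 0.675).

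**Figure D2:**
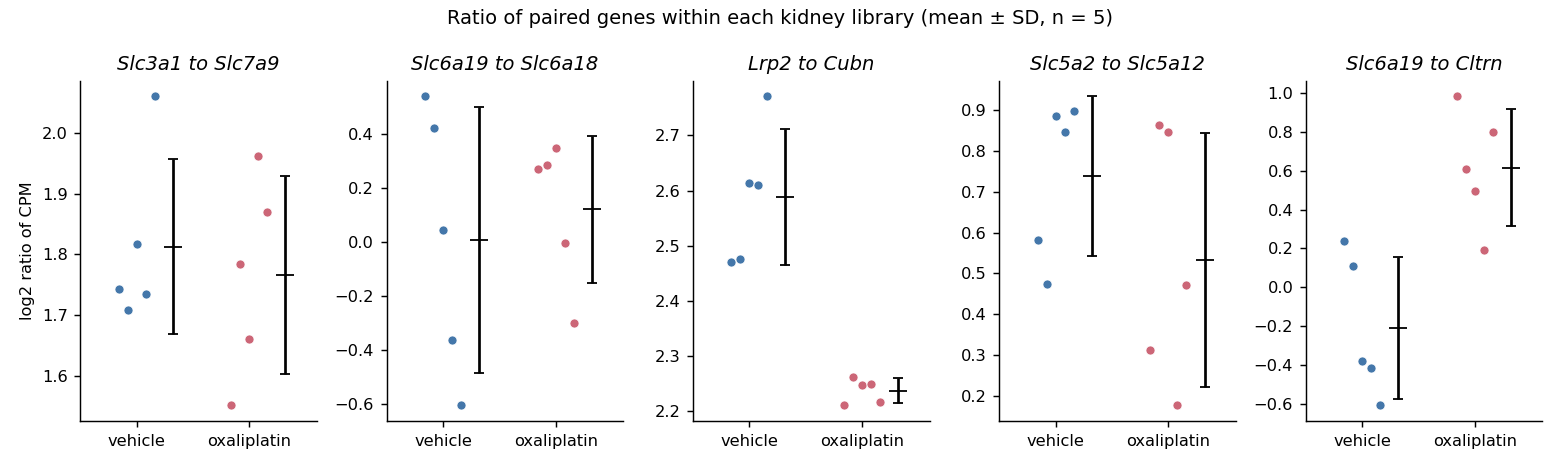
Log2 ratio of the CPM of 2 genes within each kidney library, 1 point per library (5 vehicle, blue; 5 oxaliplatin, red), with the mean and SD beside each group; the axes do not start at 0. The Lrp2 to Cubn ratio lies between 2.21 and 2.26 in the treated libraries and between 2.47 and 2.77 with vehicle.

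Slc3a1 (ENSMUSG00000024131, chr17:85028376-85064236) and Slc7a9 (ENSMUSG00000030492, chr7:35448796-35466036) encode the heavy and light subunits of the brush border carrier that takes up cystine and dibasic amino acids. Slc3a1 was at 503, 499, 493, 480 and 552 CPM with vehicle and at 433, 480, 468, 467 and 440 CPM with oxaliplatin. All treated libraries but the second were below the vehicle range, yet the log2 fold change of -0.14 ± 0.06 did not pass (adjusted p 0.109 in edgeR), whereas DESeq2 gave an adjusted p of 0.0412 and library size alone gave -0.00868 (adjusted p 0.923). Slc7a9 was at 150, 153, 140, 144 and 132 CPM with vehicle and at 148, 139, 148, 120 and 120 CPM with oxaliplatin. Its groups overlapped, and the log2 fold change of -0.09 ± 0.08 did not pass (adjusted p 0.386). The log2 ratio of the subunits averaged 1.81 ± 0.14 with vehicle and 1.77 ± 0.16 with oxaliplatin (SD, n = 5), a difference of -0.05 that did not pass (exact permutation, adjusted p 0.675). Slc7a13, a second light subunit that joins Slc3a1 and takes up cystine, aspartate and glutamate in the late tubule, fell from 451 ± 40.0 to 158 ± 78.2 CPM. Its log2 fold change was -1.51 ± 0.38 (adjusted p 0.0189), and the treated values of 98.3, 207, 217, 218 and 51.5 CPM were lowest in libraries 1 and 5. Slc3a1 shares 601 exonic bases with Prepl on the opposite strand, which was at 106 ± 9.51 and 98.5 ± 10.3 CPM and did not pass (adjusted p 0.368).

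Slc7a7 (ENSMUSG00000000958, chr14:54369442-54417780), the light subunit of the basolateral carrier that passes dibasic amino acids to the blood, rose in the kidney. It was at 207, 178, 197, 172 and 163 CPM with vehicle. With oxaliplatin it was at 249, 230, 258, 217 and 214 CPM, above every vehicle library in 5 of 5. The log2 fold change was 0.35 ± 0.08 (adjusted p 0.00322), or 1.27-fold. Slc3a2, the heavy subunit that Slc7a7 requires, rose as well, from 214 ± 9.49 to 308 ± 15.7 CPM, by 0.52 ± 0.06 on the log2 scale (adjusted p 1.87e-05). Slc7a8, another basolateral light subunit of Slc3a2 with a preference for neutral amino acids, rose by 0.61 ± 0.07 (adjusted p 6.64e-06) and was called. Slc7a7 is also known from macrophages, and in the same libraries 5 of 7 macrophage markers fell and 1 (Mrc1) rose, with summed levels of 110 to 139 CPM with vehicle and of 63.4 to 76.0 CPM with oxaliplatin. Their part in the level of Slc7a7 was not tested. Slc7a7 shares 232 exonic bases with Oxa1l on the opposite strand, which fell by 0.25 ± 0.07 on the log2 scale (adjusted p 0.0102).

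Over the wider list of 20 amino acid and peptide carriers and their partners, 5 rose, 7 fell and 8 did not pass, with a median log2 fold change of -0.11. Of these 20 genes, 4 were called. Besides Slc7a8 and Slc7a13, they were Slc7a12, an amino acid carrier of the same family, and Slc1a4, a carrier of alanine, serine and cysteine. Slc7a12 rose from 3.31 ± 1.77 to 21.9 ± 11.2 CPM, with a log2 fold change of 2.72 ± 0.50 (adjusted p 0.00420). Slc1a4 fell from 32.4 ± 5.96 to 18.2 ± 2.45 CPM, with a log2 fold change of -0.83 ± 0.12 (adjusted p 1.75e-04).

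Slc13a3 (ENSMUSG00000018459, chr2:165405028-165473230), which brings succinate, alpha-ketoglutarate and other dicarboxylates into tubule cells across the basolateral membrane, had the largest estimate among the members in the reported kidney fit. Its vehicle values were 1194, 1151, 1155, 1301 and 1358 CPM, and its values after oxaliplatin were 818, 881, 835, 802 and 763 CPM. Every treated library was below every vehicle library. Slc13a3 had a log2 fold change of -0.59 ± 0.07 (adjusted p 2.38e-05 in edgeR), or 1.503-fold lower, just past the threshold for a call. The adjusted p stayed under 0.05 in each fit that left out a library, but the estimate fell short of 1.5-fold without Kidney_ctrl replicate 4 (-0.565), Kidney_ctrl replicate 5 (-0.550), Kidney_oxa replicate 1 (-0.578), Kidney_oxa replicate 4 (-0.570) or Kidney_oxa replicate 5 (-0.552). Scaling by library size alone, which moves the median of all genes to 0.16, gave -0.455, smaller in size than the 0.550 of Slc5a12, the 0.480 of Slc6a19 and the 0.478 of Slc7a7 on that scale.

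Slc5a12 (ENSMUSG00000041644, chr2:110597298-110647779), the low-affinity carrier of lactate in the brush border of the early tubule, moved the other way. It was at 318, 363, 285, 253 and 243 CPM with vehicle and at 391, 354, 370, 464 and 374 CPM with oxaliplatin. All treated libraries but the second lay above the vehicle range. It rose by 0.42 ± 0.11 on the log2 scale (adjusted p 0.00701). Its high-affinity relative Slc5a8 fell, from 355 ± 27.2 to 153 ± 38.2 CPM, with a log2 fold change of -1.21 ± 0.15 (adjusted p 1.49e-04), and the groups did not overlap. Slc16a7, a monocarboxylate carrier that needs no sodium, rose by 0.70 ± 0.06 (adjusted p 6.05e-07). Of the 7 carboxylate and sulfate carriers in all, 2 rose, 2 fell and 3 did not pass. The log2 ratio of Slc5a2 to Slc5a12, early tubule carriers of the same family, was 0.74 ± 0.20 with vehicle and 0.53 ± 0.31 with oxaliplatin (SD, n = 5), and its difference of -0.20 did not pass (exact permutation, adjusted p 0.317), and it lay between -0.286 and -0.114 when each library was left out.

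Lrp2 (ENSMUSG00000027070, chr2:69424340-69586065) and Cubn (ENSMUSG00000026726, chr2:13276338-13491813) encode receptors that work together in taking up albumin, vitamin-binding proteins and other filtered proteins. Lrp2 was at 4214, 4421, 4218, 4515 and 6127 CPM with vehicle and at 3958, 4637, 4396, 4963 and 4872 CPM with oxaliplatin. The fifth vehicle library stood above the other 9, which overlapped. The log2 fold change of -0.04 ± 0.11 did not pass (adjusted p 0.800), and it became 0.07 (adjusted p 0.594) without that library and 0.01 (adjusted p 0.938) without Kidney_oxa replicate 1.

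Cubn was at 760, 795, 689, 740 and 898 CPM with vehicle and at 855, 967, 926, 1044 and 1049 CPM with oxaliplatin, with all treated libraries but the first above the vehicle range. It rose by 0.32 ± 0.08 on the log2 scale (adjusted p 0.00802). The log2 ratio of Lrp2 to Cubn was 2.47, 2.48, 2.61, 2.61 and 2.77 with vehicle and 2.21, 2.26, 2.25, 2.25 and 2.22 with oxaliplatin. It was lower in 5 of 5 treated libraries, by 0.35 in the mean, and the exact two-sided permutation test gave p = 0.00794, which 5 against 5 libraries cannot go below, and an adjusted p of 0.0397. The treated libraries also lay closer together, with an SD of 0.023 beside 0.12 with vehicle. Leaving out each library kept the difference between -0.38 and -0.31. The adjusted p stayed at 0.0397, which says nothing more, since separated groups of 4 and 5 always give the lowest exact p of 0.00794.

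Amnionless (Amn), which carries cubilin to the cell surface, had a log2 fold change of -0.26 ± 0.10 and did not pass (adjusted p 0.0709). It passed without Kidney_oxa replicate 2 (-0.33, adjusted p 0.0174) or Kidney_oxa replicate 3 (-0.31, adjusted p 0.0380), and was at -0.166 (adjusted p 0.178) without Kidney_oxa replicate 5 and at -0.128 (adjusted p 0.274) with library size alone. The adaptor Dab2 was at 432 ± 36.1 and 426 ± 16.5 CPM and did not pass (adjusted p 0.868). Among 8 genes of the uptake machinery, 1 rose and 1 fell, the latter being Lrpap1, the chaperone of megalin. Lrpap1 was at 555 ± 25.1 CPM with vehicle and 405 ± 50.02 CPM with oxaliplatin, with a log2 fold change of -0.46 ± 0.08 (adjusted p 5.74e-04).

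**Figure D3:**
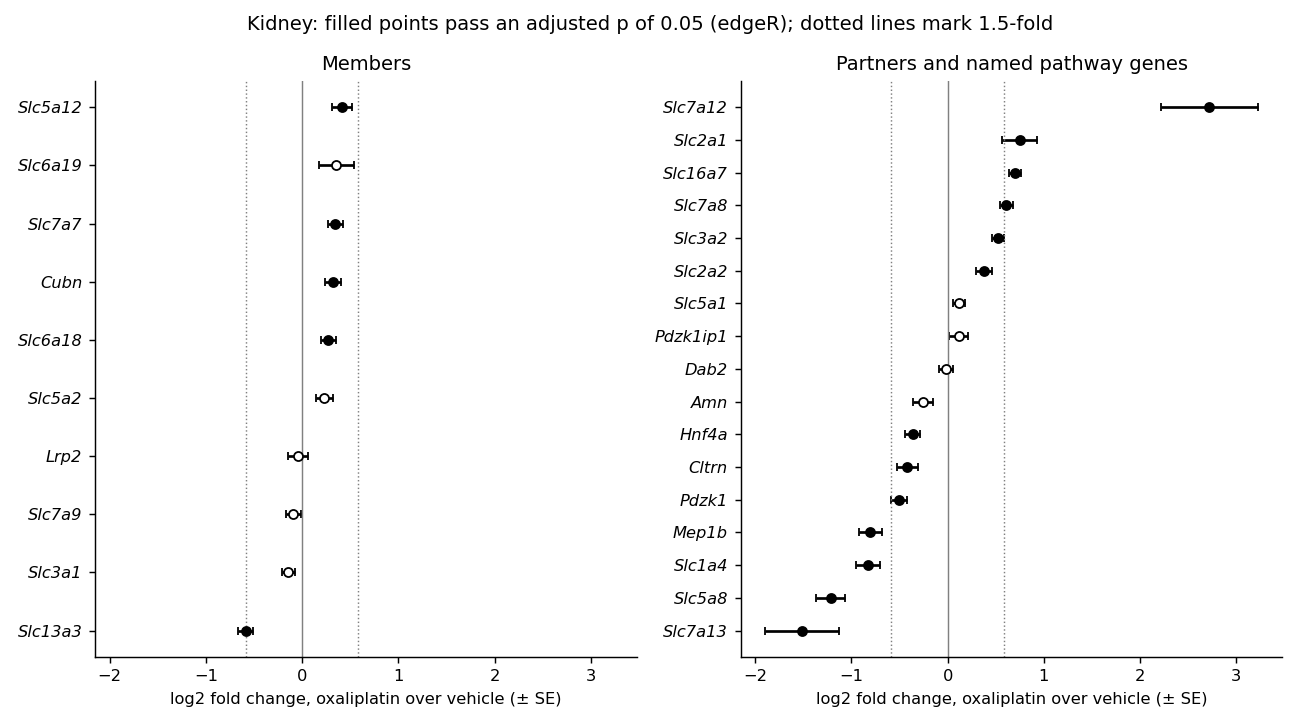
Log2 fold change in the kidney, oxaliplatin over vehicle, with its SE, for the 10 members (left) and for partner and named pathway genes (right); filled points pass an adjusted p of 0.05 and dotted lines mark 1.5-fold. Among the members the estimates run from -0.59 (Slc13a3) to 0.42 (Slc5a12), and among the other genes from -1.51 (Slc7a13) to 2.72 (Slc7a12).

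Other genes of the same pathways included rises and falls. Of 67 such genes besides the members, 14 rose and 20 fell, where 14.4% and 15.0% of all genes tested did, and 8 were called, 4 in each direction, beside 11.5% of all genes tested, with a median log2 fold change of -0.06. Brush border peptidases, which free amino acids from peptides at the same membrane, included 1 that rose, 3 that fell and 4 that did not pass. Mep1b, a subunit of the metalloprotease meprin, was the called one, at -0.80 ± 0.12 (adjusted p 2.88e-04), from 187 ± 17.6 to 108 ± 21.5 CPM. The genes of the sodium gradient and the membrane scaffold held 1 that rose, 3 that fell and 3 that did not pass. Pdzk1, a scaffold of brush border carriers, fell by 0.50 on the log2 scale (adjusted p 2.90e-04), from 628 ± 18.6 to 443 ± 57.9 CPM.

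Of 9 transcription factors of the tubule, 4 fell and 5 did not pass. Hnf4a, a factor needed for proximal tubule maturation, fell from 1446 ± 50.9 to 1124 ± 112 CPM, at -0.36 ± 0.08 on the log2 scale (adjusted p 0.00207), and the groups did not overlap. With library size alone it was at -0.232 (adjusted p 0.0111).

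**Figure D4:**
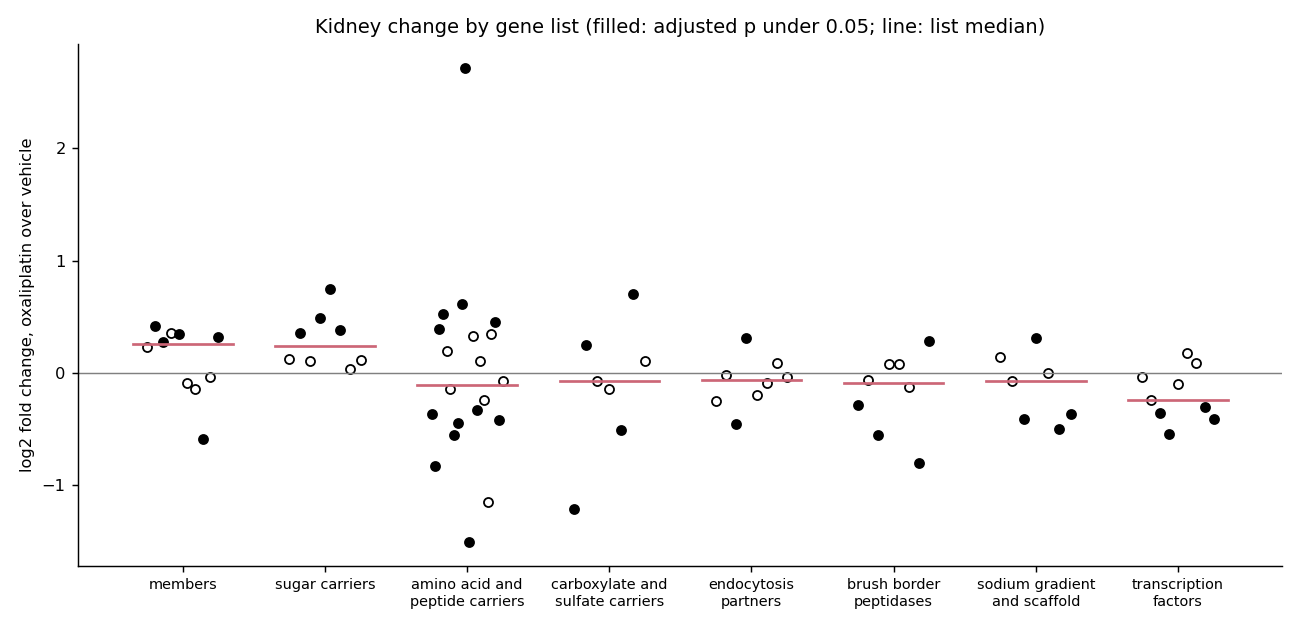
Log2 fold change in the kidney, oxaliplatin over vehicle, for each gene of the members' list and of 7 pathway lists; filled points pass an adjusted p of 0.05 in edgeR and the red line is the list's median. The medians run from -0.24 for the transcription factors to 0.25 for the members, and every list but the sugar carriers and the transcription factors holds filled points on both sides of 0.

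Markers of the tissue moved between the groups as well. Of 10 other proximal tubule markers, 7 fell and 0 rose, and their summed level was between 37530 and 41970 CPM with vehicle and between 19520 and 28050 CPM with oxaliplatin. Their median log2 fold change was -0.52, and Kap, Slc27a2 and Acsm2 were among the 5 called. Treated libraries 1 and 5 stood apart in several of them, with Kap, an androgen-regulated tubule gene, at 831 and 362 CPM and between 2897 and 3509 CPM in the other treated libraries. Acsm2 was at 1330 and 1186 CPM in these libraries beside 2383 to 2771 CPM, and the red cell gene Hba-a1 at 17.4 and 17.6 CPM beside 81.3 to 257 CPM. In an edgeR fit without both libraries, chosen after seeing the data, 5 members passed. Slc5a2 (0.349, adjusted p 0.00614) was gained and Slc6a18 (0.201, adjusted p 0.0729) lost, and Slc13a3 was at -0.545 (adjusted p 7.33e-05). In that fit 1520 kidney genes were called, beside 2216 in the reported fit. The share of all genes passing in it is not given here, so the 5 members have no background there. Markers of the loop of Henle and distal tubule had summed levels of 4548 to 5326 and of 5490 to 6113 CPM, with 2 of 7 rising, and those of the collecting duct had 3 of 8 rising. All 5 podocyte markers rose (296 to 301 CPM summed with vehicle, 435 to 529 CPM with oxaliplatin), as did all 6 fibroblast markers (185 to 210 and 412 to 509 CPM) and 3 of 5 endothelial markers. Of 6 tubule injury markers, Lcn2 rose and the other 4 tested did not pass. Lymphocyte markers were near the detection limit, with summed levels of 3.81 to 5.67 CPM with vehicle and of 1.77 to 2.625 CPM with oxaliplatin, and none of the 3 tested passed. Erythroid markers summed to between 226 and 344 CPM with vehicle and between 85.9 and 579 CPM with oxaliplatin, with 1 of 4 rising. The part of these shifts in the members' values was not tested.

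Among the vehicle-treated mice the members split evenly in library 5. Slc6a18, Slc3a1, Slc13a3, Lrp2 and Cubn had their highest vehicle value there, and Slc5a2, Slc5a12, Slc6a19, Slc7a7 and Slc7a9 their lowest. No other library held more than 2 of the highest vehicle values. Among the treated mice, library 1 held the lowest value of 4 members (Slc5a2, Slc3a1, Lrp2 and Cubn) and the highest of Slc6a19, and library 3 held the highest value of Slc5a2, Slc7a7 and Slc7a9. The members' standardised log2 CPM was averaged in each library, over members that rose and members that fell, so no single member need follow this average. Among 13625 other genes, the 5 most like the average over the 10 kidney libraries were Arhgap44 (Pearson r 0.943), Slc2a12 (0.918), Hgf (0.903), Crym (0.888) and Arhgap35 (0.883). With the group means removed these values were between 0.779 and 0.915. The libraries share treatment, depth and scaling, so these coefficients are descriptions only.

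Bone marrow, which has no tubules, held 5 of the members at levels that could be tested, Slc7a7, Slc5a2, Slc13a3, Cubn and Slc3a1. Slc7a7 was the highest, at 18.0 ± 1.67 CPM with vehicle, 10.2-fold below the kidney on scales set separately in each tissue, and the other 4 were between 172-fold and 841-fold below it. Of the remaining 5, Slc5a12 and Slc7a9 had no more than 6 counts in any marrow library, Slc6a18 no more than 2, Lrp2 between 6 and 15, and Slc6a19 between 0 and 27. A floor of 3 counts lay between 0.0729 and 0.0978 CPM in the marrow libraries, and it covers counting error only.

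**Figure D5:**
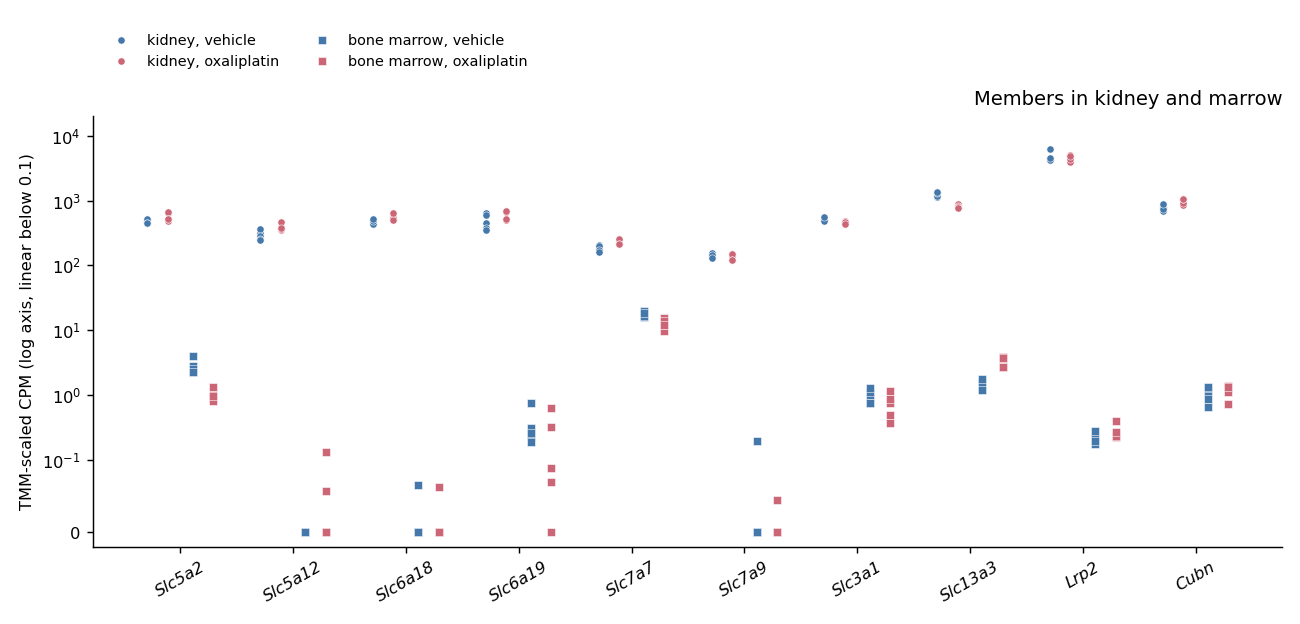
TMM-scaled CPM of the members in kidney (circles) and bone marrow (squares) for vehicle (blue) and oxaliplatin (red), 1 point per library, on a log axis that is linear below 0.1 CPM. All members lie above 100 CPM in kidney and below 20 CPM in marrow, and Slc7a7 is the highest of them in marrow; the tissues were scaled separately.

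In marrow, 3 of the 5 tested members passed, where 33.1% of the 22363 genes tested did, and 2 were called, beside 23.3% of all genes tested. Slc7a7 was at 16.2, 16.4, 19.2, 19.8 and 18.6 CPM with vehicle and at 15.2, 9.72, 11.9, 13.9 and 12.0 CPM with oxaliplatin. It fell in 5 of 5 treated libraries, by 0.52 on the log2 scale (SE 0.13, adjusted p 0.00755 in edgeR), the direction opposite to that in kidney. Slc13a3 was at 1.27, 1.63, 1.45, 1.23 and 1.75 CPM with vehicle and at 2.71, 3.70, 2.68, 3.89 and 3.80 CPM with oxaliplatin. It rose in marrow, with a log2 fold change of 1.19 ± 0.21 (adjusted p 6.42e-04), while it fell in kidney.

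Slc5a2 in marrow was at 2.31, 2.85, 4.06, 2.51 and 2.27 CPM with vehicle and at 0.864, 1.35, 0.816, 1.02 and 0.970 CPM with oxaliplatin, with no overlap. It fell, with a log2 fold change of -1.48 ± 0.24 (adjusted p 4.10e-04). BC017158, which shares exonic bases with it, was at 47.8 ± 3.88 and 23.2 ± 2.83 CPM in the same libraries and had a log2 fold change of -1.04 ± 0.10, and its part in the Slc5a2 counts was not tested. Cubn (0.14 ± 0.28, adjusted p 0.746) and Slc3a1 (-0.41 ± 0.34, adjusted p 0.386) did not pass in marrow.

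Erythroid markers in marrow summed to between 22040 and 39230 CPM with vehicle and to between 2599 and 7162 CPM with oxaliplatin, and macrophage markers to between 858 and 1184 and between 1214 and 2691 CPM. Lymphocyte markers fell in the same libraries (4 of 7). The part of these shifts in the marrow values of Slc7a7, Slc13a3 and Slc5a2 was not tested. A direct test of the difference in response, the tissue by treatment interaction in edgeR over all 20 libraries taken as independent, passed for the same 3 genes, where 30.1% of 24321 genes passed and 23.7% were called. The log2 fold change in kidney minus that in marrow was -1.84 ± 0.17 for Slc13a3 (adjusted p 5.05e-08), 1.66 ± 0.21 for Slc5a2 (adjusted p 3.64e-06) and 0.81 ± 0.15 for Slc7a7 (adjusted p 2.13e-04). Whether kidney and marrow libraries of the same number come from the same mouse is not given in the sources used here. Taking them as 1 mouse, an alternative chosen after seeing the data, left 3 members passing, with Slc13a3 at -1.83, Slc5a2 at 1.63 and Slc7a7 at 0.82 (adjusted p 0.00108). For the other 7 members it did not pass in the test over independent libraries, and for Slc5a12, Slc6a18, Slc6a19, Slc7a9 and Lrp2 it rested on marrow counts of no more than 27.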

How the data were processed

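The authors deposited raw counts of uniquely aligned, unambiguous reads per gene for kidney and bone marrow, without normalization. The paper names STAR with Ensembl release 101 and Partek Flow, while the submitters' processing notes list STAR 2.7.9a and featureCounts 2.0.3. The methods describe cDNA made with a SMARTer kit, and the sample records describe ribosomal RNA removal and random hexamers, so the chemistry is given in 2 ways. Strand use is not given in the sources used here. Each table had 55774 lines, and 287 repeated lines and 1 incomplete line were dropped. Positions and exonic lengths come from GENCODE M21 (GRCm38).

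Genes were filtered in each tissue with filterByExpr (minimum count 10), TMM factors were computed, and the robust quasi-likelihood test was run in edgeR 4.0.16 (R 4.3.3), with treatment as the only term. Ratios used log2 CPM with a prior count of 2. On data simulated from the kidney libraries, 86% of genes changed 2-fold and 99% of those changed 4-fold passed in the right direction. Of the unchanged genes 14 passed falsely, among 18945 genes in all, with no fold change threshold. The planted changes were in well-counted genes, and changes as small as those of the members were not simulated. Floors of 3 counts were between 0.0970 and 0.123 CPM in kidney. The alternatives were DESeq2 1.42.0, median ratio size factors, library size alone, no filter beyond 1 count, a covariate of Y-linked genes, a replicate block, the adjusted p alone, a prior count of 0.5 and each library left out, with 2 more chosen after seeing the data, namely treated kidney libraries 1 and 5 left out together and the tissues of same-numbered mice taken as 1 mouse. Named genes were the members, 10 partners, up to 2 called rises and falls per pathway list, and Lrpap1, which was named after its values were seen. Some single genes are not reported here. The members and lists were chosen with earlier results of these data known. Plots were made in matplotlib 3.10.9.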

Additional observations from a re-analysis of the deposited data

Results flagged for a closer look

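Dixon's test, which marks about 5% of groups by chance, was applied to 40 groups of 5 values, and 1 was reported. Groups of members that did not pass the count filter in marrow are left out of that 1 but not of the 40. The count can therefore not be set against the 5%. Lrp2 in the fifth vehicle-treated kidney was at 6127 CPM, with the other 4 vehicle libraries between 4214 and 4515 CPM. The gap to the nearest library was 0.843 of the group's range, beyond the critical value of 0.71. The count of 1 leaves out Slc5a12, Slc6a18, Slc6a19, Slc7a9 and Lrp2 in marrow, which did not pass the count filter there. Some of their groups also went beyond the critical value. Slc6a19 was at 0.770 CPM in BM_ctrl replicate 4 and between 0.189 and 0.316 CPM in the other vehicle libraries. Lrp2 was at 0.404 CPM in BM_oxa replicate 5 and between 0.230 and 0.267 CPM in the other treated libraries. Slc6a18 and Slc7a9 had counts in a single library of each marrow group.

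The response to oxaliplatin differed between kidney and bone marrow for 3 members of 10 in edgeR's test of the interaction, beside 30.1% of all 24321 genes. The log2 fold change in kidney minus that in marrow was -1.84 for Slc13a3, which fell in kidney and rose in marrow. It was 0.81 for Slc7a7, which rose in kidney and fell in marrow, and 1.66 for Slc5a2, which fell in marrow and did not pass in kidney. In marrow Slc5a2 had 70 to 129 counts with vehicle and 30 to 46 with oxaliplatin. The part of BC017158, which shares exonic bases with it, was not tested. The tissues differ in cell types and in the RNA extraction named in the labels, which cannot be told apart from the tissue.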

How the results depend on the processing

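The count of called kidney members, 1 in the reported fit, was 0 with library size alone, 0 with a covariate of Y-linked genes, 0 without treated libraries 1 and 5 (added after seeing the data), between 0 and 1 when a library was left out, and 5 by the adjusted p alone, where 5679 kidney genes passed in place of 2216. Slc13a3 kept its direction and an adjusted p under 0.05 in all these fits, with log2 fold changes between -0.62 and -0.45. Library size alone moved the median of all kidney genes from 0.02 to 0.16 and the rises among called genes from 66.8% to 82.7%. It also turned the estimates, none of which passed, of Slc7a9 to 0.0378, Lrp2 to 0.0972 and Dab2 to 0.114, and made Slc5a2 (0.361, adjusted p 0.00334), Slc5a1 (0.255) and Pdzk1ip1 (0.243) pass. Slc5a2 also passed with no filter beyond 1 count (adjusted p 0.0199), and Amn with the covariate of Y-linked genes (adjusted p 0.0480). Leaving out a library gave between -0.0767 and 0.0722 for Lrp2 and between -0.0453 and 0.0194 for Dab2. The interaction of Slc6a18 then lay between -1.49 and 2.15 and that of Slc7a9 between -1.85 and 3.06, with none passing, while that of Slc6a19 passed without BM_oxa replicate 1 (1.79) and that of Slc5a12 without BM_oxa replicate 5 (-3.29). The ratio difference of Slc3a1 to Slc7a9 lay between -0.0960 and 0.0148 and that of Slc6a19 to Slc6a18 between -0.0394 and 0.246. The covariate of Y-linked genes turned Cubn in marrow to -0.0834. Of the 5 ratios, 2 passed in the reported test and between 1 and 2 when a library was left out.

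The replicate numbers belong to different mice, and same-numbered kidney libraries did not deviate together (correlations between -0.154 and 0.0754). In marrow these correlations lay between -0.118 (replicate 4) and 0.228 (replicate 5). With the replicate block, 2017 kidney genes were called, Slc6a19 passed (0.38, adjusted p 0.0101), and 0 ratios passed, since sign flips in 5 pairs cannot give a p under 0.0625. Other calls on the members did not change with the block. The 5 libraries per group limit the precision, and 5 members did not pass the count filter in marrow and were not tested there.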
